A study of Homo sapiens with 20 samples.

Results

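The regions described here were the 886 stretches of open chromatin to which the authors assigned no gene and that lay on chromosomes 1, 2, 3, 4, 7, 9, 10, 11, 12, 14 and 16 to 22. They were chosen by an empty gene field and by chromosome, out of 8286 regions in all, of which 1670 had an empty gene field on any chromosome. ATACseq, in which a transposase inserts sequencing adapters into accessible DNA, was done on HL60, an established human promyelocytic leukaemia cell line that matures towards neutrophils under all-trans retinoic acid (ATRA). Cells labelled HK3-null, in which CRISPR/Cas9 was aimed at the hexokinase gene HK3, and cells carrying Cas9 alone (Cas9 control) were kept for 36 h in 1 µM ATRA or in 0.01% DMSO, with 2 libraries in each of the 4 groups. HK3-null cells were grown from single cells by limiting dilution. All HK3-null libraries carry the same label, which does not say whether it names a clone. Whether replicates came from different clones is not known, and p values measure the spread between these libraries. A difference between genotypes here cannot be told apart from a difference between clones. RNAseq of the same 4 groups had 3 libraries each.

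Open chromatin away from genes often marks enhancers, short stretches of DNA that bind transcription factors and act on promoters over a distance, and insulators bound by CTCF. In myeloid cells enhancers are bound by lineage factors such as PU.1, C/EBP and RUNX proteins and by AP-1, a dimer of FOS and JUN family proteins that responds to signalling. ATRA acts through retinoic acid receptors, which pair with RXR proteins on DNA. A region with no assigned gene is not thereby an enhancer, and no measurement here tied a region to a gene.

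RNA medians bear on the choice of chromosomes. On the 17 listed autosomes the median log2 RNA difference between HK3-null and Cas9 control in DMSO lay between -0.10 and 0.08 per chromosome, whereas it was -0.75 on chromosome 5, 0.53 on 6, 1.11 on 8, -0.58 on 13 and -0.94 on 15. The median ATAC difference over tested regions still ran from -1.34 on chromosome 21 to 0.89 on chromosome 19. The targeted gene HK3 had normalised RNA counts of 90, 65 and 105 in Cas9 control and 344, 302 and 346 in HK3-null in DMSO. Small CRISPR edits need not remove the RNA, so HK3 counts do not check the genotype, and HK3-null stands below for the libraries so labelled. All 10 myeloid identity genes (among them MPO, ELANE and PRTN3) were expressed, with mean counts of 812 or more, and no T cell, erythroid, epithelial or neuronal marker had a mean above 19.2. Of 4 fibroblast markers, COL1A1 and COL1A2 had 321 and 105 counts in the Cas9 control DMSO replicate 1 RNA library, against at most 33 and 8 in any other library. Of 4 B cell markers, MS4A1 was at 0 throughout and PAX5 had 1, 0 and 2 counts in Cas9 control and 98, 119 and 92 in HK3-null in DMSO. CD79A had 45 to 102 counts in every library, with 46, 45 and 57 against 49, 57 and 60 in DMSO. In bulk samples, a larger share of cells with open chromatin and more open chromatin per cell cannot be told apart.

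Sequences are shown first for the 3 members with the largest rise and the 3 with the largest fall between genotypes in DMSO, since these carry the strongest contrast. Each is the central 200 bases of its region on the plus strand of hg38, with letters in capitals where they match a searched motif. The 3 rises come first:
chr4:9152887-9153086: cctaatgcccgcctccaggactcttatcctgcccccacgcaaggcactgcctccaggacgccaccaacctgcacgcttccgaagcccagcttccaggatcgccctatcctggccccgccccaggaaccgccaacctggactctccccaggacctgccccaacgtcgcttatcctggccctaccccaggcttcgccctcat
chr1:25082345-25082544: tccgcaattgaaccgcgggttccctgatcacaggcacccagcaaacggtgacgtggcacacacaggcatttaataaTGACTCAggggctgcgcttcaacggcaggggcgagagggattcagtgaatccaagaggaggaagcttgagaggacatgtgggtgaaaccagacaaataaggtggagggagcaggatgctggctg
chr17:78645971-78646170: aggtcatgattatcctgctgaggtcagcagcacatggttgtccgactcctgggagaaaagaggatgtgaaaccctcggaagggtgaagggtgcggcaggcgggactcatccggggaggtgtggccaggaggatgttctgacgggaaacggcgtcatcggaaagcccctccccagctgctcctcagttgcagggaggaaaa
The 3 falls follow:
chr2:226693611-226693810: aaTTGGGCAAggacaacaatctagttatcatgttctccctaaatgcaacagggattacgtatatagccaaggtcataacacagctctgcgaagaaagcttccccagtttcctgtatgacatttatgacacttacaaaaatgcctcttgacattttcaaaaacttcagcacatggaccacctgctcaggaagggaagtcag
chr4:27337126-27337325: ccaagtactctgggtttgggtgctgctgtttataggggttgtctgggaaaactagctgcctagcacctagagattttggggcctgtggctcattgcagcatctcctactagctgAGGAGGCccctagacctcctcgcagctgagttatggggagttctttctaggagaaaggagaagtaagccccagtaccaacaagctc
chr9:105062581-105062780: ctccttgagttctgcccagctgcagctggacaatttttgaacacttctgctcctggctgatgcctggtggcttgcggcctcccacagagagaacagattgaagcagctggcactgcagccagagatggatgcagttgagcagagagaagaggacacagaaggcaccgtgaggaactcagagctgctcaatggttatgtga
The capitals mark TGANTCA, the AP-1 letters, in the chromosome 1 window, TTGCNNAA read on the other strand, the C/EBP letters, in the chromosome 2 window, and AGGNGGC, a core of the CTCF motif, in the window at chr4:27337126-27337325. The 3 rises held 11, 8 and 9 CpG dinucleotides in these windows and the 3 falls 2, 1 and 2. The other windows held none of the 7 motifs searched, which says only that those letters are not in 200 bases.

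The regions were short. Their length ran from 200 to 1773 bases with a median of 451, against 456 for regions with 1 gene and 463 for regions with several genes on the same chromosomes. Mean signal, the fragment density over the 8 libraries, had a median of 23.8, against 25.7 and 30.9 in those groups, and 29 over all regions. GC content of the central 200 bases had a median of 48%, against 51.5% and 55.5%, and 20.4% of the members had 5 or more CpG dinucleotides there, against 35.2% and 50.9%. These differences between kinds of region are descriptions without a test.

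By GENCODE version 44, 644 members (72.7%) were intergenic, 180 (20.3%) lay in introns and 62 (7%) touched an exon. Long non-coding RNA genes overlapped 180 members, and protein-coding genes overlapped 58, although the gene field of these rows was empty. The nearest RefSeq protein-coding gene lay at a median of 55267 bases, with quartiles of 21250 and 202012 bases, and 338 members had none within 100000 bases. The longest member, chr2:38545447-38547220, lay 14749 bases from HNRNPLL, an RNA-binding protein known for alternative splicing in lymphocytes. The shortest, chr10:130020636-130020836, measured 200 bases and overlapped an exon of C10orf143.

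The lowest mean signal, at chr19:14903862-14904193 in an exon of the olfactory pseudogene OR7A3P, came from a single library. There HK3-null ATRA replicate 1 had 22.2, while the other libraries had 0 to 2.82.

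How the deposited rows were selected limits the genotype comparison in ATRA. All 8286 regions differed at least 1.65-fold between the genotype means in ATRA, and the members at least 1.91-fold, so that comparison chose the rows and is only described. In ATRA 469 members were higher and 417 lower in HK3-null. The authors numbered their merged regions in genomic order up to at least 100670, and the table held 8.23% of these numbers.

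HK3-null and Cas9 control were next compared in DMSO, in libraries that did not themselves enter that selection. All rows had been kept for a difference between the same genotypes in ATRA, so many calls in DMSO were likely from the start. The shares called therefore describe these selected rows, not open chromatin in general. Values were analysed as log2(signal + 1) in 1 limma model of all 8 libraries, so the spread also drew on the ATRA libraries. A region was called where it changed by 1.5-fold or more with an adjusted p (Benjamini-Hochberg) below 0.05. A mean signal above 17.1, the 25th percentile of all regions, was passed by 596 members, and the other 290 were not tested. Signal was higher in HK3-null in 200 of the 596 (33.6%) and lower in 290 (48.7%). Over all 6214 tested regions 42.7% were called higher and 43.9% lower, together 86.6%. The members' share of calls in either direction, 82.2%, lay near that background, while their calls leaned more to falls. Their median log2 difference was -0.63, against 0.33 over all tested regions, 0.29 in regions with 1 gene and 0.42 in those with several. The difference between kinds of region was not tested. The lean to falls was not seen over all 886 members, of which 451 were above 0 and 435 below in DMSO, and the 290 members that were not tested had a median of 0.82.

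**Figure D1:**
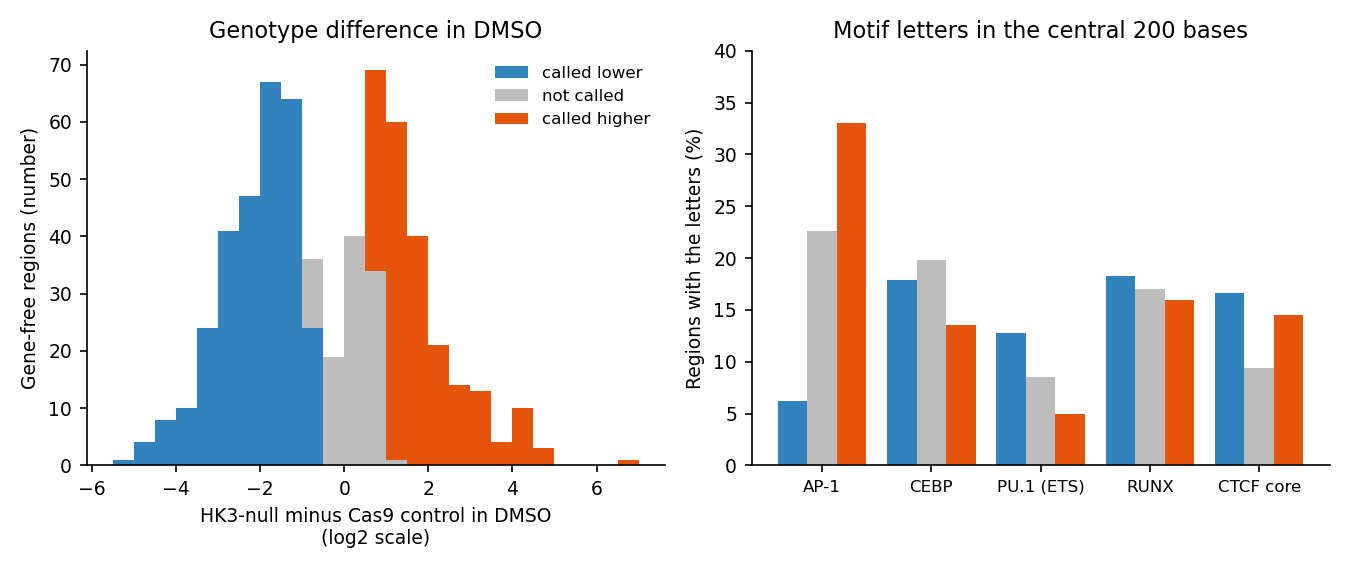
Left, number of tested gene-free regions by log2 difference of signal between HK3-null and Cas9 control in DMSO (n = 2 per group), with called falls, regions not called and called rises stacked. Right, percentage of the 290 called falls, 106 regions not called and 200 called rises whose central 200 bases hold each motif's letters, with AP-1 at 6.21%, 22.6% and 33%.

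In the 290 members that fell, the median signal was 55.8 and 54.6 in the Cas9 control DMSO libraries and 13.6 and 12.6 in HK3-null. In the 200 that rose it was 15.2 and 15.8 in Cas9 control and 58.4 and 53.8 in HK3-null. The median log2 difference was -1.91 among falls and 1.54 among rises, and 135 falls and 66 rises were past 2 on the log2 scale. Of all 886 members, 810 (91.4%, against 94.8% of all regions) had DMSO libraries of the genotypes that did not overlap. The sign of the difference was the same in DMSO and in ATRA in 858 members and opposite in 28. All rows were selected for a genotype difference in ATRA, so this agreement is a description, given without its share over all regions. Near-complete switches were few. In 11 members (1.24%, against 1.07% of all regions) the signal was under 5 in all 4 HK3-null libraries and over 25 in all 4 Cas9 control libraries, and another 11 (1.24%, against 1.65%) showed the converse. These limits were chosen after the values were seen.

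The 8 steepest falls lay 37318 to 311616 bases from the nearest coding gene. At chr2:226693429-226693994, 37318 bases from IRS1, an adaptor of insulin receptor signalling, signal was 91.6 and 89.8 in Cas9 control and 1.69 and 1.89 in HK3-null in DMSO, and 80.7 and 50.7 against 3.18 and 2.92 in ATRA. The log2 difference in DMSO was -5.04 ± 0.41 (SE, n = 2 per group, limma, adjusted p = 1.34e-12). No HK3-null library came near a Cas9 control library at this site, which was chosen for such a gap. At chr4:27336997-27337456, 311616 bases from STIM2, a calcium sensor of the endoplasmic reticulum, DMSO signal was 47.6 and 51.9 in Cas9 control against 0 and 1.61 in HK3-null (-4.97 ± 0.50, SE, adjusted p = 1.31e-10), and ATRA signal was 74.1 and 40.1 against 3.4 and 2.54. STIM2 RNA, with 524, 520 and 525 counts against 504, 509 and 535, had a log2 difference of -0.02 ± 0.08 (SE, n = 3, limma, adjusted p = 0.842).

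At chr9:105062539-105062823, 134384 bases from ABCA1, the cholesterol efflux transporter, signal was 40.7 and 58.8 in Cas9 control and 1.62 and 0 in HK3-null in DMSO. In ATRA, where the rows were selected, it was 20.6 and 18 against 2 and 0. The log2 difference in DMSO was -4.95 ± 0.61 (SE, n = 2, limma, adjusted p = 1.1e-08). ABCA1 RNA was lower too, as given with the nearest genes. A nearer member, 95688 bases from ABCA1, was under the signal needed for testing and did not share this fall. It had 7.44 and 8.22 in Cas9 control and 9.44 and 5.89 in HK3-null in DMSO, and 7.44 and 3 against 19.6 and 21.9 in ATRA. The other 5 falls named by the rule lay nearest to OAT (chr10:124340976-124341600), NECTIN3 (chr3:110995402-110995851), CHST1 (chr11:45470702-45471209), LRIG3 (chr12:59185216-59185797) and EPHA6 (chr3:96672241-96672703), at 55703 to 264712 bases. Their DMSO signal was 46.3 to 128 in Cas9 control and 1 to 5.78 in HK3-null, with log2 differences of -4.63 to -4.34. RNA of these 5 genes and of MIR5702, the nearest gene of any kind to the IRS1 site, did not reach the level needed for testing.

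Rises included sites near genes with known myeloid roles. At chr4:9152455-9153519 signal was 1.47 and 2.63 in Cas9 control and 287 and 294 in HK3-null in DMSO, and 3.21 and 2.12 against 254 and 239.5 in ATRA. The log2 difference in DMSO was 6.61 ± 0.35 (SE, n = 2 per group, limma, adjusted p = 1.04e-17), and no other member differed by as much. This region covers an exon of the pseudogene FAM86KP, whose family has near-identical copies elsewhere in the genome. The authors kept reads that mapped uniquely, and how reads were placed among the copies was not tested. At chr1:25082232-25082659, 117094 bases from RUNX3, a transcription factor of blood cells, signal was 2.14 and 1 against 79.1 and 64.9 in DMSO and 0 and 1.86 against 52.2 and 57.9 in ATRA (DMSO difference 4.86 ± 0.50, SE, adjusted p = 2.46e-10). RUNX3 RNA was 3066, 2747 and 2619 in Cas9 control and 3372, 3027 and 2344 in HK3-null in DMSO (0.04 ± 0.15, SE, n = 3, adjusted p = 0.845), and the libraries overlapped.

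At chr10:45354169-45354692, 19524 bases from ALOX5, the 5-lipoxygenase of leukotriene synthesis, signal was 3 and 4.31 in Cas9 control and 91.9 and 99.5 in HK3-null in DMSO, and 4.38 and 3.23 against 156 and 185 in ATRA. The log2 difference in DMSO was 4.39 ± 0.36 (SE, n = 2, adjusted p = 1.34e-12), and ALOX5 RNA rose with it from 163, 148 and 162 to 835, 734 and 786 counts (2.32 ± 0.08, SE, n = 3, adjusted p = 1.26e-09). At chr12:7036601-7037359, 18125 bases from LPCAT3, a phospholipid acyltransferase, and in an intron of C1S, a complement protease, DMSO signal was 10.5 and 7.75 against 214 and 205 (4.39 ± 0.39, SE, adjusted p = 8.41e-12). LPCAT3 RNA was 1511, 1735 and 1591 against 1534, 1567 and 1443 counts (-0.09 ± 0.08, SE, n = 3, adjusted p = 0.352). The other 4 rises lay nearest to CYTH1 (chr17:78645858-78646284), PRUNE2 (chr9:76577539-76577899), TMEM185B (chr2:120223000-120223707) and ZNF678 (chr1:227542456-227542945). Their DMSO signal was 0 to 4.09 in Cas9 control and 28.7 to 85.4 in HK3-null, with log2 differences of 4.41 to 4.61. The member nearest to PRUNE2 by RefSeq lay 33477 bases from it, in a GENCODE intron of GCNT1.

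**Figure D2:**
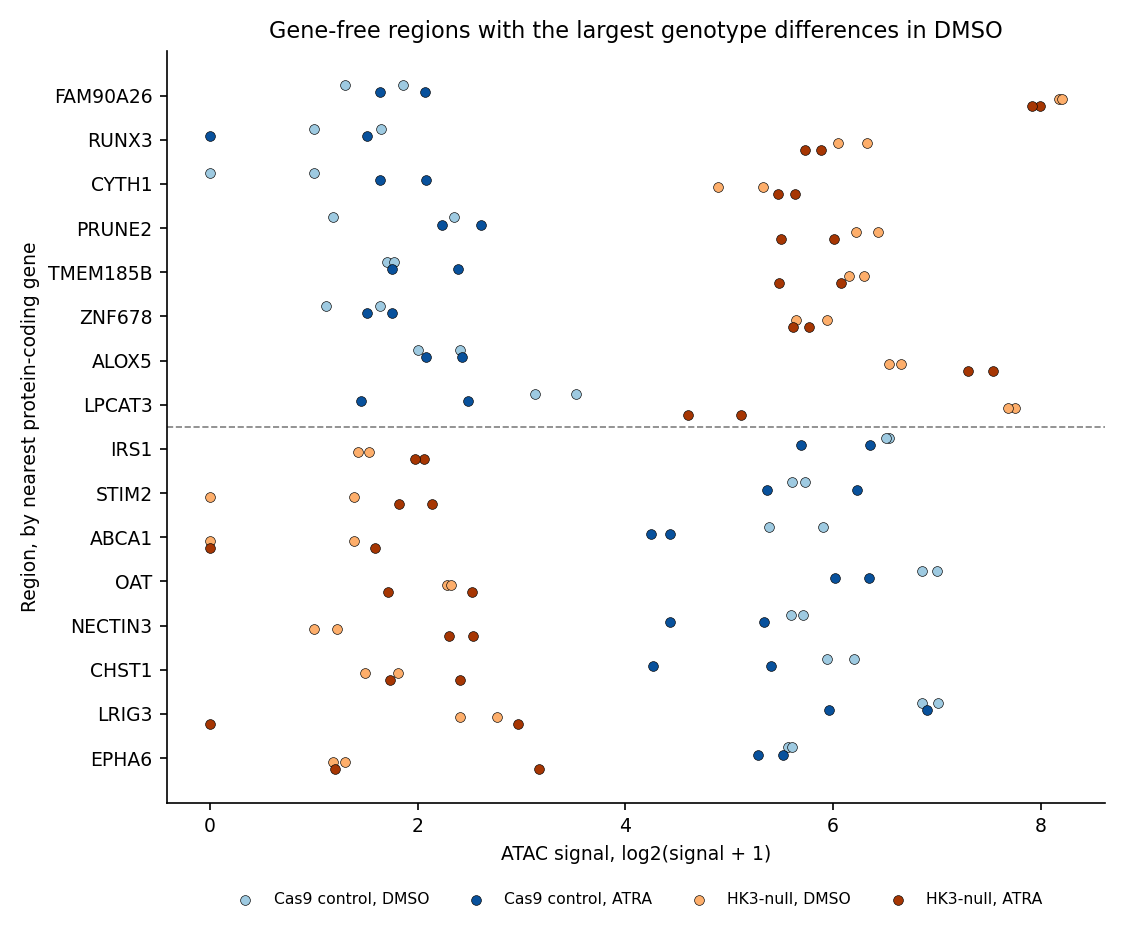
Signal of each library as log2(signal + 1) for the 8 largest rises (above the dashed line) and the 8 largest falls between genotypes in DMSO, each region labelled by its nearest RefSeq protein-coding gene. Points are single libraries, 2 in each of the 4 groups, and in every region the 4 HK3-null libraries lie apart from the 4 Cas9 control libraries. Regions were named for libraries that do not overlap in DMSO, and rows were selected for a difference in ATRA.

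Motif letters stood in different shares of rises and falls, described here without a test. The AP-1 letters TGANTCA, read on both strands, were in the central 200 bases of 66 of the 200 called rises (33%), of 24 of the 106 members not called (22.6%) and of 18 of the 290 called falls (6.21%), against 18.1% of all 886 members and 14.5% of all 8286 regions. The PU.1 letters GAGGAAGT went the other way, with 10 rises (5%) and 37 falls (12.8%), against 7.05% of all regions. C/EBP letters (TTGCNNAA) were in 13.5% of rises and 17.9% of falls, RUNX letters (TGTGGTT) in 16% and 18.3%, GATA letters (AGATAA) in 10.5% and 8.97%, and the CTCF core (AGGNGGC) in 14.5% and 16.6%. Over all regions these 4 sets of letters were in 13.8%, 11%, 7.65% and 20%. Retinoic acid receptors can bind a direct repeat of 2 half-sites, searched here as GGTCA, any 6 bases, GGTCA. These letters were in 1 member (0.113%), near RXRA and shown with that gene, and in 0.0965% of all regions. None of the other motifs contains the AP-1 letters, and a match is a description of letters, not of binding.

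In regions with genes the AP-1 letters were in 28.2% of rises and 5.09% of falls where 1 gene was assigned and in 22.6% and 4.6% where there were several. Among tested regions not called, the letters were in 23.4% with 1 gene and in 25.5% with several, the latter above the share in rises. The 108 tested members with the letters had median signals of 22.3 and 22.6 in Cas9 control and 46.8 and 44.2 in HK3-null in DMSO, and 66 of them rose and 18 fell. The 488 without the letters had 40 and 44.1 against 23.9 and 22.6, and 134 rose and 272 fell. RNA of AP-1 subunits was looked up after these shares were seen. FOS had 17, 11 and 10 counts in Cas9 control and 150, 123 and 96 in HK3-null in DMSO (log2 difference 3.30 ± 0.29, SE, n = 3, limma, adjusted p = 2.29e-06). FOSL1 had 28, 11 and 6 against 193, 192 and 151 (3.85 ± 0.54, SE, adjusted p = 0.000104). JUND had 1755, 1479 and 1016 against 4149, 3485 and 2763 (1.31 ± 0.29, SE, adjusted p = 0.00235). JUNB passed the adjusted p but not the fold of 2 (0.68 ± 0.11, SE, adjusted p = 0.000258), and FOSB, FOSL2, JUN, BATF3 and ATF3 did not pass, with adjusted p of 0.187, 0.112, 0.626, 0.244 and 0.436. With a replicate block, FOSL2 had an adjusted p of 0.00201, still under the fold of 2 (0.49). With that block FOSB, JUN, BATF3 and ATF3 still did not pass (limma, adjusted p = 0.117, 0.269, 0.259 and 0.0811). BATF, a partner of JUN proteins, had 279, 243 and 275 counts against 151, 187 and 202 and also passed the adjusted p but not the fold (-0.57 ± 0.15, SE, adjusted p = 0.00826). BATF2 had 1, 1 and 2 counts against 0, 0 and 0, too few for a fold.

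CpG dinucleotides were counted in the same windows. Among called rises 64 of 200 (32%) had 5 or more CpG in the window, among called falls 53 of 290 (18.3%). Over all tested regions the shares were 46.7% and 35.7%. The richest named members were the rises near ZNF678 with 24 CpG and at TMEM185B with 23, while the 8 named falls had 0 to 3. Median length was 492.5 bases in rises and 507.5 in falls.

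ATRA was compared with DMSO within each genotype. The ATRA libraries took part in the selection of the rows, and Cas9 control ATRA replicate 2 had a lower summed signal over all regions than the other libraries, 244488 against 345345 to 390632. In Cas9 control 21 members rose (3.52%) and 101 fell (16.9%), against 2.54% and 15.6% of all tested regions. The median log2 difference was -0.32, against -0.30 over all tested regions. With quantile normalisation 44 rose and 75 fell, with library medians made equal 45 rose and 67 fell, and without Cas9 control ATRA replicate 2 20 rose and 50 fell. Without Cas9 control DMSO replicate 1 the count was 76, and without replicate 2 it was 68.

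In HK3-null 48 members rose under ATRA (8.05%) and 91 fell (15.3%), against 5.04% and 11.8% of all tested regions, with a median of -0.15 against -0.17. Equal library medians gave 63 rises and 80 falls. Without HK3-null DMSO replicate 1 the count was 67 instead of 139, without replicate 2 it was 73, and without HK3-null ATRA replicate 1 it was 85. Of the members called, 61 were called in both genotypes, which was 50% of those in Cas9 control and 43.9% of those in HK3-null. Over all tested regions 467 were called in both, 41.4% and 44.6% of the calls. Of these, 13 rose in both, 47 fell in both and 1 changed in opposite directions.

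**Figure D3:**
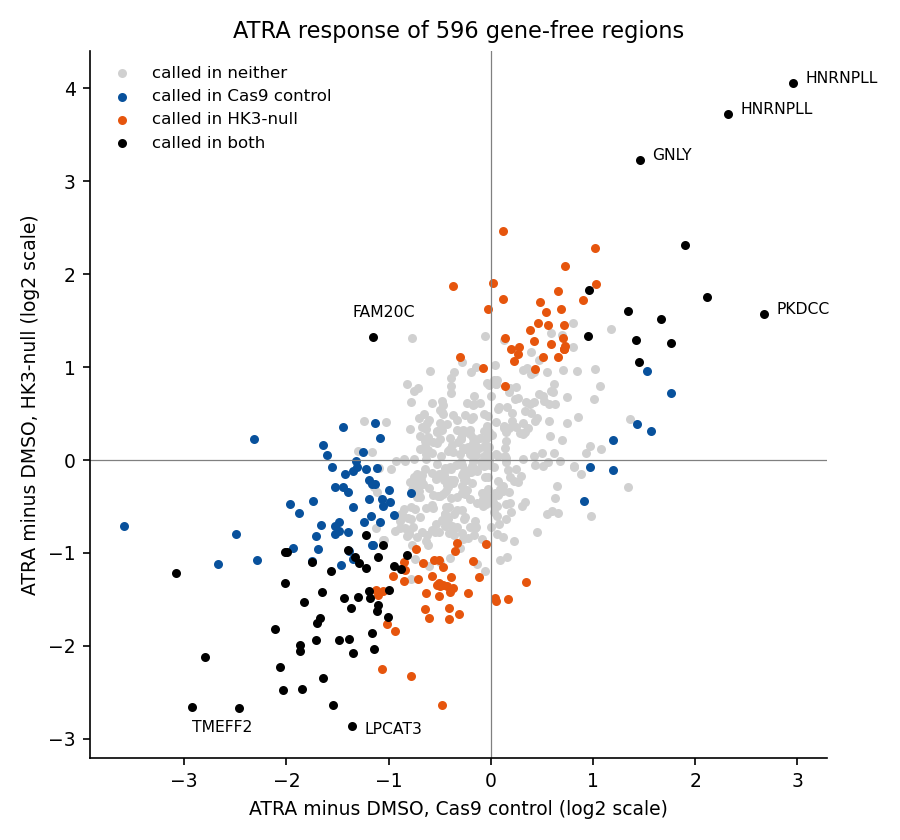
ATRA minus DMSO on the log2(signal + 1) scale in Cas9 control (horizontal) and HK3-null (vertical), 1 point for each of the 596 tested gene-free regions (n = 2 per group), coloured by the genotype in which it was called. A few regions are labelled by nearest gene, and the 2 near HNRNPLL have the largest rises in HK3-null.

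A pair of neighbouring regions near HNRNPLL rose steeply. At chr2:38545067-38545351 signal was 1 and 0 in DMSO and 10.7 and 9.33 in ATRA in Cas9 control (2.96 ± 0.58, SE, n = 2 per group, limma, adjusted p = 0.000322), and 2.78 and 1.78 against 38.2 and 73.9 in HK3-null (4.06 ± 0.58, adjusted p = 3.05e-06). At chr2:38545447-38547220, the longest member, it went from 2.65 and 1.81 to 17.5 and 12.9 in Cas9 control and from 5.2 and 5.7 to 67.9 and 103 in HK3-null (3.72 ± 0.45, adjusted p = 1.5e-07). HNRNPLL RNA rose as well. It went from 1367, 1302 and 1373 to 3390, 3718 and 4032 counts in Cas9 control (1.46 ± 0.07, SE, n = 3, adjusted p = 5.53e-08) and from 1656, 1516 and 1723 to 5988, 6781 and 6276 in HK3-null (1.96 ± 0.07, adjusted p = 4.33e-09).

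At chr2:85710971-85711442, 12119 bases from GNLY, a cytotoxic granule protein, signal went from 13.1 and 10.8 to 123 and 117 in HK3-null (3.23 ± 0.35, SE, n = 2, adjusted p = 1.5e-08), and from 9.33 and 14.3 to 36.9 and 30.5 in Cas9 control. At chr4:137771391-137771803, 238897 bases from PCDH18, a protocadherin, it went from 10.6 and 14.3 to 66.5 and 80.1 in HK3-null (2.47 ± 0.41, adjusted p = 2.68e-05), while Cas9 control had 11.4 and 13.5 in DMSO and 22.1 and 8.15 in ATRA, which overlap. In Cas9 control the other named rises were chr2:42072806-42073288 near PKDCC, with 9.4 and 10.2 against 87.9 and 51.9 (2.67, adjusted p = 7.42e-06), and chr19:47595966-47596282 near BICRA, with 1.12 and 5.5 against 22.5 and 10.1 (2.12, adjusted p = 0.00044). The call near BICRA was lost without Cas9 control ATRA replicate 1 (1.58, adjusted p = 0.0537).

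Among falls, chr2:192500651-192501210, 305718 bases from TMEFF2, was named in both genotypes. Its signal went from 42.8 and 65.8 to 6.06 and 6.27 in Cas9 control (-2.92, limma, adjusted p = 1.86e-07) and from 138 and 125 to 21 and 18.8 in HK3-null (-2.66, adjusted p = 3.46e-07). The region near LPCAT3, high in HK3-null in DMSO, fell from 214 and 205 to 33.7 and 23.3 under ATRA (-2.86, adjusted p = 1.28e-06). The region at chr11:122375682-122376391 lay in an intron of MIR100HG, the host gene of a cluster of microRNAs. There HK3-null signal went from 109 and 108 to 14.2 and 18.5 (-2.67, adjusted p = 1.08e-06) and Cas9 control signal from 26.3 and 37.1 to 5.23 and 4.54. The other named falls lay near IL1R1 in HK3-null (chr2:102050774-102051163, from 11.4 and 12.9 to 3.42 and 0) and near CORO1A (chr16:30171090-30171296, from 31 and 28.3 to 5.43 and 0), SND1 (chr7:127634917-127635514, from 48.9 and 61.9 to 11.2 and 2.6) and LSM3 (chr3:14283114-14283803, from 187 and 167 to 33.1 and 18.2) in Cas9 control.

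RNA of CORO1A, an actin regulator of leukocytes, went the other way from its neighbouring region. It was 24198, 23145 and 24405 counts in DMSO and 40038, 39476 and 38828 in ATRA in Cas9 control (0.72 ± 0.06, SE, n = 3, limma, adjusted p = 2.15e-06), under the fold of 2 needed for a call.

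The ATRA response differed between genotypes past an adjusted p of 0.05 in 1 member (0.168%, against 0.274% of all tested regions). At an unadjusted limma p under 0.05 there were 85 members (14.3%, against 11.2%). Of these, 61 were more positive in HK3-null, a split given without its share over all regions. The median difference of responses was 0.19 on the log2 scale in tested members and 0.15 over all tested regions. The ATRA libraries took part in the selection of the rows, so these counts are descriptions. The member past the adjusted p, chr7:133477-133841, lay 58730 bases from FAM20C, a kinase of secreted proteins. Signal went from 32.6 and 33.5 to 17.2 and 12 under ATRA in Cas9 control, and from 23 and 13.2 to 53.9 and 37.6 in HK3-null. The responses ran in opposite directions without overlap, and the difference of responses was 2.47 on the log2 scale (limma, adjusted p = 0.0236). This call was lost without Cas9 control ATRA replicate 2, HK3-null DMSO replicate 2, HK3-null ATRA replicate 1 or either Cas9 control DMSO library (adjusted p = 0.0561 to 0.208), with no filter (0.0583) and with library medians made equal (0.0604). FAM20C RNA in ATRA was 73, 124 and 83 counts in Cas9 control and 9637, 11662 and 8042 in HK3-null. Under ATRA this RNA rose in both genotypes. The log2 difference from DMSO was 4.34 ± 1.03 in Cas9 control (SE, n = 3, limma, adjusted p = 0.00575) and 6.02 ± 1.03 in HK3-null (adjusted p = 0.000524). In Cas9 control the RNA thus rose while the region fell.

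Members also lay in local clusters. With neighbours at most 50 kb apart, 26 clusters of 3 or more members held 82 members (9.26%), 4 clusters had 4 members and 22 had 3, and there were 73 pairs and 658 single regions. Spans ran from 4.81 to 80.8 kb with a median of 21.6 kb. No deposited region with an assigned gene lay inside them, and the gene field of numbered regions absent from the deposit is unknown. In 23 clusters all members had the same sign in DMSO, 16 lower in HK3-null and 7 higher, and in 3 the signs were mixed. Of the 73 pairs, 65 had the same sign. Shared signs were not counted among neighbouring regions with genes, so these counts do not set the members apart. In 9 clusters every numbered region of the span was in the deposited table. In ATRA, where the rows were selected, a shared direction is a description.

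The cluster at chr12:4091053-4153898, 4 members over 62.8 kb, lay nearest to CCND2, a cyclin of the G1 phase. Its 4 members had DMSO signal of 49 to 125 in Cas9 control and 4.12 to 49.3 in HK3-null, with log2 differences of -3.20 to -1.36, and all 4 were called lower. At chr10:49212952-49257482, near C10orf71 and TMEM273, the 4 members had 16.5 to 52.2 against 2.44 to 17.2 (-3.32 to -1.54), and the 3 tested were called lower. At chr16:65689718-65764170, near CDH11 and CDH5, 2 cadherin genes, they had 12.7 to 183 against 4.46 to 72.1 (-2.49 to -1.35), and the 3 tested were called lower.

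The remaining cluster of 4, chr9:25990347-26013488 near TUSC1, had positive differences in DMSO of 0.22 to 1.26, and the 2 tested were not called (0.22 and 0.30), with differences in ATRA of 1.13 to 2.31. The 3 members at chr1:223175584-223181244 near TLR5, the flagellin receptor, had 42.2 to 77.8 in Cas9 control against 5.25 to 27.5 in HK3-null in DMSO, and all 3 were called lower (-2.76 to -1.46). At chr1:239363887-239368698 near CHRM3, a muscarinic receptor, the 3 members had 1.57 to 24.2 against 15.7 to 64.5 (1.51 to 2.59), and the 2 tested were called higher. Within each of these 6 clusters every member had the same sign in both treatments.

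**Figure D4:**
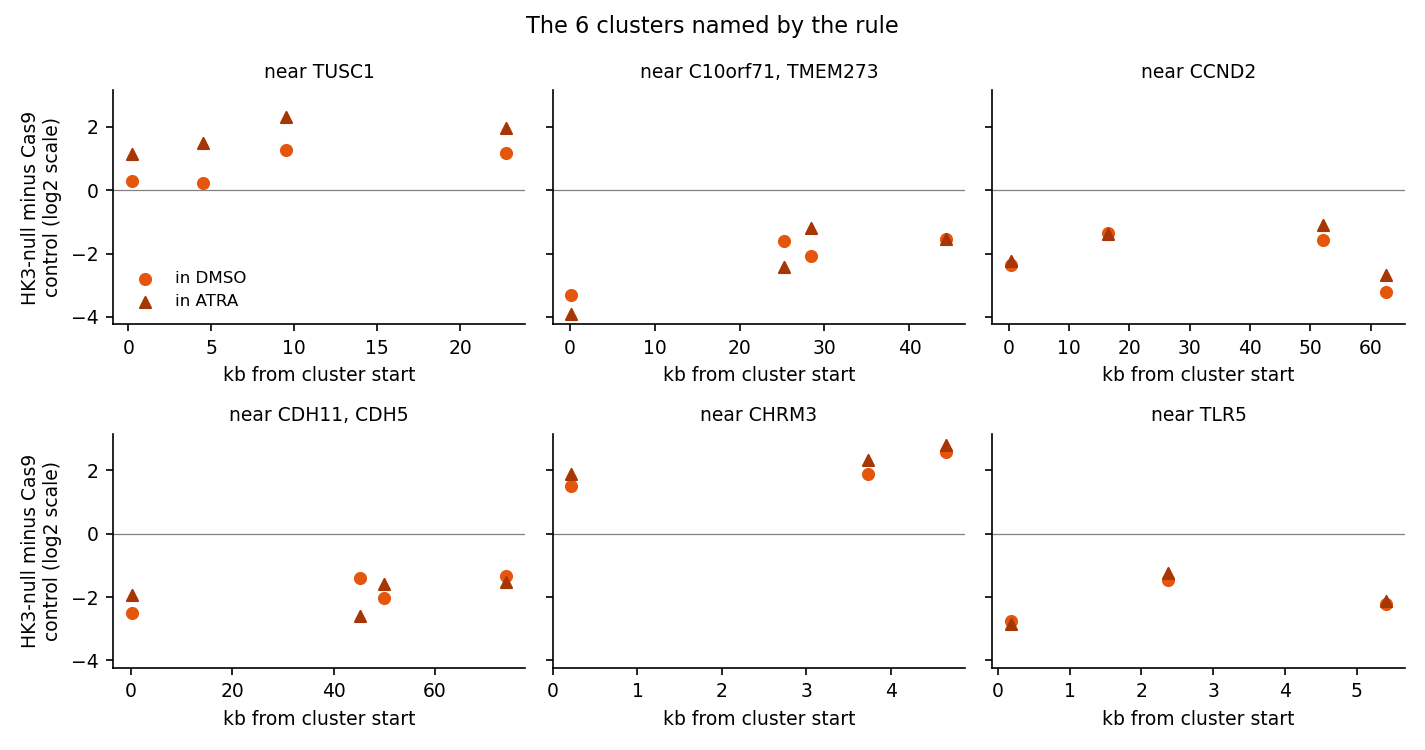
Log2 difference of signal between HK3-null and Cas9 control for each member of the 6 named clusters, against distance in kb from the start of the cluster, in DMSO (circles) and in ATRA (triangles). The members of a cluster share a sign in every panel, positive near TUSC1 and CHRM3 and negative in the other 4.

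A further stretch was singled out after its values were seen. On chromosome 19, chr19:28393686-28737449, 9 members in 3 clusters spread over 344 kb of a region poor in coding genes, all nearest to the non-coding locus LOC100420587. All 9 were lower in HK3-null in DMSO (-3.52 to -1.34, median -2.66), and the 6 tested were all called. Their median signal was 40 and 33.7 in Cas9 control and 8.36 and 3.54 in HK3-null in DMSO, and 32.9 and 33.8 against 4.69 and 4.21 in ATRA. Of the other 11 numbered regions of this stretch, 4 had the gene LOC101927210 assigned and were lower too (-4.86 to -1.63). The remaining 7 had no row among the deposited regions, which were selected for a genotype difference in ATRA.

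RNA of the nearest gene gave a readout that the choice of regions did not use. The members were nearest to 695 distinct genes of the RNA table, of which 356 were expressed enough for testing. In DMSO 47 of these (13.2%) were higher in HK3-null and 27 (7.58%) lower, at a fold of at least 2, against 11.1% and 8.21% of all genes tested and 9.48% and 5.92% of genes on the 17 listed autosomes. For ATRA in Cas9 control 34 (9.55%) rose and 15 (4.21%) fell, against 6.84% and 2.78%. For ATRA in HK3-null 52 (14.6%) rose and 36 (10.1%) fell, against 8.06% and 6.05%. These shares are descriptions without a test.

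The direction of region and RNA was then set side by side. Next to the 200 regions called higher in DMSO, 105 distinct genes were tested and 22 were called higher and 2 lower. Next to the 290 called lower, 104 were tested and 9 were called higher and 11 lower. Next to the 48 members that rose under ATRA in HK3-null, 22 were tested and 10 rose and 2 fell. Next to the 91 that fell there, 44 were tested and 9 rose and 6 fell. In Cas9 control, 3 of 12 genes next to rises rose and none fell, and 6 of 55 next to falls rose and 1 fell. The difference between these counts was not tested, and nearness does not tie a region to a gene.

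The genes with the largest RNA rise next to called members were low in Cas9 control. TMEM185B, a membrane protein whose own start carries one of the named regions, had 20, 0 and 0 counts in Cas9 control and 1095, 1045 and 1087 in HK3-null in DMSO (limma, adjusted p = 0.00361). ZNF678, a zinc finger gene, had 2, 0 and 0 against 150, 191 and 160 (adjusted p = 0.00243), with the region 20611 bases away at 2.12 and 1.17 against 48.8 and 60.4. ZC3H12C, an RNase of the regnase family, had 4, 0 and 0 against 121, 113 and 91 (adjusted p = 0.00547), and both members nearest to it rose. At chr11:110069084-110069801 signal was 5.57 and 6.57 against 82 and 70.2 (3.45 ± 0.38, SE, n = 2, adjusted p = 1.24e-09).

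LGALS3, the galectin of macrophages, had 62, 1 and 2 counts in Cas9 control and 295, 312 and 272 in HK3-null (adjusted p = 0.00199). The region 20653 bases away, chr14:55107769-55108599, had 25.3 and 29.3 against 143 and 130 (2.28 ± 0.30, SE, n = 2, adjusted p = 5.07e-08). FAM20C had 45, 1 and 2 against 163, 141 and 143. Its called member was lower in HK3-null in DMSO, at 32.6 and 33.5 against 23 and 13.2 (-0.89 ± 0.37, SE, n = 2, limma, adjusted p = 0.0257). With 1 DMSO library left out this difference was -1.27 to -0.51. In TMEM185B, LGALS3 and FAM20C the counts of Cas9 control DMSO replicate 1 stood above those of the other 2 Cas9 control libraries, as did COL1A1 there. Without that library 75 nearest genes were called (51 higher and 24 lower) instead of 74, and the genes named here were all still called. GALC, a lysosomal galactosidase, had 3, 1 and 0 against 440, 423 and 401 (adjusted p = 0.00657), but its called member lay 959521 bases away and was lower in HK3-null, at 32.2 and 48.1 against 7.38 and 2.25.

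Among RNA falls was KLF15, a zinc finger factor of metabolic genes. In DMSO it had 74, 47 and 109 counts in Cas9 control and 0, 0 and 0 in HK3-null. This is at least 25.6-fold lower when a library at 0 is set to 3 counts, a bound that was not tested. The limma fit (adjusted p = 5.51e-09) used the fixed low value deposited for 0. The HK3-null DMSO libraries thus added no spread, and this p depends on that fixed value. The 3 members nearest to KLF15 formed a cluster at chr3:126260922-126275864, and all 3 were lower in HK3-null. Signal was 55.7 and 61.7 against 4.93 and 6.75 at the outermost (-3.14 ± 0.42, SE, n = 2, adjusted p = 5.81e-08), and 57.1 and 38.3 against 6.96 and 7.04 at the innermost (-2.58 ± 0.45, adjusted p = 4.61e-06). STK33, a kinase gene whose RefSeq body contains chr11:8354616-8355377, had 471, 447 and 413 against 30, 33 and 23 counts (-3.97 ± 0.22, SE, n = 3, adjusted p = 6.43e-08), and signal there was 65 and 54.6 against 7.54 and 6.12.

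ATP8A1, a phospholipid flippase, had 412, 340 and 324 against 35, 20 and 25 counts (-3.78 ± 0.23, SE, adjusted p = 1.05e-07), with its region at 29.9 and 41.4 against 9.46 and 13.9. ABCA1 had 321, 551 and 122 against 46, 49 and 22 (-2.92 ± 0.60, SE, adjusted p = 0.0015). ROBO1, an axon guidance receptor, had 206, 166 and 160 against 1, 0 and 0 counts (adjusted p = 0.00153), while its called members, 570333 and 599124 bases away, were higher in HK3-null. The call of the nearer was lost without Cas9 control DMSO replicate 1 (0.94, adjusted p = 0.135) and without HK3-null DMSO replicate 1 (1.13, adjusted p = 0.0961).

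**Figure D5:**
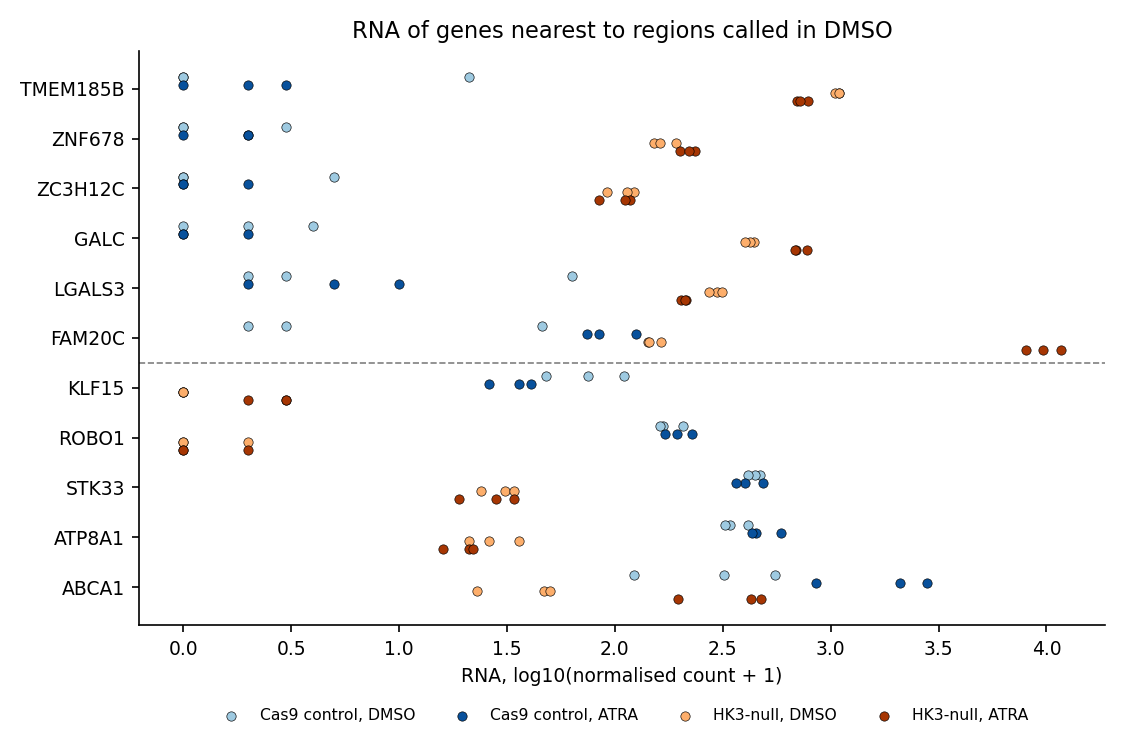
Normalised RNA counts as log10(count + 1) of the 6 genes with the largest rise (above the dashed line) and 5 of those with the largest fall in DMSO among genes nearest to called members. Points are single libraries, 3 in each of the 4 groups, and FAM20C reaches 8042 to 11662 counts in HK3-null ATRA.

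Of listed blood regulators and granule genes, 12 were nearest to a member. Of 45 blood transcription factors, 9 were nearest to 10 members, and of 37 tested in RNA 11 were higher and 2 lower in HK3-null in DMSO, against 11.1% and 8.21% of all genes tested. The member near RUNX1, in an intron at chr21:35227415-35227906, had 46.9 and 51.4 against 15.8 and 8.38 in DMSO (limma, adjusted p = 2.07e-05), while RUNX1 RNA was 4450, 4512 and 3512 against 4620, 4561 and 3794 (adjusted p = 0.713). The call near ERG (1.01, adjusted p = 0.0367) was lost without Cas9 control DMSO replicate 1 (0.17, adjusted p = 0.765), without HK3-null DMSO replicate 2 (0.74, adjusted p = 0.209) and without either Cas9 control ATRA library. The 2 members near IKZF1 did not pass, with adjusted p of 0.0736 and 0.191. Members near ETV6, IRF8, BCL11A and TCF7L2 were under the signal needed for testing, and the member near RUNX3 is described above. PAX5, from the B cell list, had a member 66833 bases away that was lower in HK3-null in DMSO, at 169 and 212 against 78.2 and 62.2 (-1.43 ± 0.29, SE, adjusted p = 5.31e-05), while its RNA was higher.

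Of 35 granule and phagocyte genes, 24 of 33 tested were higher in HK3-null in DMSO and none was lower, against 11.1% and 8.21% of all genes tested, and 3 were nearest to 6 members. MMP9, a gelatinase of neutrophil granules, had 5, 1 and 6 counts against 57, 49 and 53 (4.09 ± 0.65, SE, n = 3, adjusted p = 0.000259), with the region 16941 bases away at 29.4 and 23.1 against 56.9 and 59.3 (1.13 ± 0.36, adjusted p = 0.0049). The nearer member, 15047 bases away, had 157 and 157 against 247 and 190.4 and did not pass (0.46 ± 0.28, adjusted p = 0.123). The member near CXCR4, the receptor that retains cells in marrow, was lower, at 199 and 214 against 83.8 and 75 (-1.37 ± 0.29, adjusted p = 6.63e-05), while CXCR4 RNA was 3923, 2764 and 2812 against 3825, 3571 and 3263 (adjusted p = 0.373). Of the 3 members near TLR4, the endotoxin receptor, the 2 tested were lower, and TLR4 RNA had an adjusted p of 0.127.

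Of 25 genes of the retinoid response, 4 of 15 tested were higher and 2 lower in HK3-null in DMSO, against the same 11.1% and 8.21%. Near RXRA, the partner of the retinoic acid receptors, chr9:134456056-134456748 had 94.4 and 73.5 against 9.29 and 14.2 in DMSO (-2.75 ± 0.34, SE, n = 2, adjusted p = 1.46e-08). A second member 18619 bases from RXRA rose under ATRA in HK3-null from 9.17 and 12.2 to 57.6 and 40.2 (2.09 ± 0.43, adjusted p = 0.000482), and went from 5.33 and 8.17 to 13.1 and 10.4 in Cas9 control, where it did not pass (0.73 ± 0.43, adjusted p = 0.261). The difference of the responses did not pass either (1.35 on the log2 scale, adjusted p = 0.386). This was the member that held the direct repeat, and its central 200 bases on the plus strand of hg38 are shown with that repeat and, further on, the AP-1 letters in capitals:
chr9:134459302-134459501: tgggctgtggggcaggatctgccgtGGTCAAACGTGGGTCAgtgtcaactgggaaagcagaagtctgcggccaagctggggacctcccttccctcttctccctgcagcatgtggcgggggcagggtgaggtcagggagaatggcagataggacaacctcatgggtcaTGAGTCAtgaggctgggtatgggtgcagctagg
The spacing of the repeat was set after other results were seen, and a match is no evidence of binding. RXRA RNA fell by 0.81 on the log2 scale in HK3-null under ATRA, from 7017, 6762 and 6760 to 4086, 3698 and 3925 counts (adjusted p = 1.75e-07), short of a fold of 2. In Cas9 control it fell by 1.04, from 5430, 5082 and 5223 to 2641, 2570 and 2459 (adjusted p = 3.97e-08).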

How the data were processed

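ATACseq signal was measured in 8 libraries and RNAseq in 12. The authors aligned ATACseq reads to hg38 with bwa mem, kept uniquely mapped reads, called peaks with MACS2, extended reads to 200 bases, merged regions, reduced all libraries to the smallest and deposited a signal for each region, its density of fragments. Versions, and whether the signal is an average or a summit value, are not stated in the sources used here. Read depth behind a signal is therefore unknown, so no counting interval was given. For RNAseq the authors deposited the log2 of a scaled count, with 0 written as the log2 of 0.001, and 2 raised to each value is called the normalised count. Where libraries were at 0, the fitted size and p of an RNA difference depend on the value written for 0.

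Signals were analysed as log2(signal + 1) with limma 3.58.1 in R 4.3.3 (lmFit, then eBayes with a trend), 1 mean per group, over 6214 regions, with Benjamini-Hochberg adjustment over all of them. The deposited log2 RNA values of 13256 genes with a group mean above 3 were fitted likewise and called at a fold of at least 2. Both fits were tested on simulated data. Coordinates are as deposited. They were checked against RefSeq genes of GRCh38, where 98% of 8371 pairs of region and gene lay within 10000 bases. Nearest genes are by distance to the gene body. Motifs were searched with Python 3.11.15 and pysam 0.24.0.

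Regions named were the 8 largest rises and 8 largest falls in DMSO, 4 of each for ATRA in each genotype, any interaction, the 6 clusters with most members (ties by smaller span), and the extremes of length and signal, with replicates that did not overlap. Genes named were those nearest to them, the 6 largest RNA rises and falls next to called members and listed genes nearest to a member. A few results that these rules select are not reported here. Members, lists and rules were chosen with earlier results of these data known. RNA libraries with the same number deviated together (correlation 0.189 to 0.63 over 18 pairs), so the numbers pair them, while ATAC libraries did not. RNA statistics given here are from the fit without that pairing, except where a replicate block is named. Alternatives were another pseudocount, no filter, other scaling, a replicate block, other thresholds and leaving out each library.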

Additional observations from a re-analysis of the deposited data

Results flagged for a closer look

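The region chr7:133477-133841 near FAM20C stood out because its ATRA response differed between genotypes, by 2.47 on the log2 scale (limma interaction, adjusted p = 0.0236). The call was lost without Cas9 control ATRA replicate 2 (2.23, adjusted p = 0.17), without either Cas9 control DMSO library (2.49 and 2.45, adjusted p = 0.0561 and 0.0881), without HK3-null ATRA replicate 1 (2.22, adjusted p = 0.0696), without HK3-null DMSO replicate 2 (2.09, adjusted p = 0.208), with no filter on low signal (adjusted p = 0.0583) and with library medians made equal (2.26, adjusted p = 0.0604). The direction was the same in each of these.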

How the results depend on the processing

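Counts of members called between genotypes in DMSO stayed within 1.5 times the main count of 490 under every alternative run (424 to 693). For ATRA in Cas9 control, leaving out a library gave 68 to 147 calls instead of 122. For ATRA in HK3-null it gave 67 to 155 instead of 139. The interaction, called in 1 member, was called in 8 with a pseudocount of 5, 3 with quantile normalisation, 4 with a replicate block, 2 without a trend, and 0 with no filter or with library medians made equal, which was chosen after seeing the data, and in 0 to 15 when a library was left out. A gap of 25000 bases gave 16 clusters instead of 26. RNA calls among nearest genes were 112 at a fold of 1.5 instead of 74, and 77 with a replicate block. ATAC libraries share only a number (correlation of deviations between -0.209 and 0.0539), and the block gave 484, 117 and 146 calls for genotype, ATRA in Cas9 control and ATRA in HK3-null. The causes of these changes were not tested.

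For named regions and genes, 970 of 992 alternative values kept direction and side of the threshold, 17 lost the call, 5 gained it and none reversed. Many of these regions were named for large called differences. Leaving out a library from outside a comparison does not change its size. The count is therefore no measure of how stable regions are in general. With 2 libraries per group, a group left with 1 library was assumed to vary like the others. The depth behind a signal is unknown, which leaves the counting error of low signals unmeasured.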
